A study of Mus musculus with 3 samples.

Results

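The genes described here are 10 that encode the non-muscle cytoskeleton: the intermediate filament proteins Vim and Nes, the cytoplasmic actins Actb and Actg1, the actin monomer-binding thymosins Tmsb4x and Tmsb10, the filament turnover proteins Cfl1 and Pfn1, and the contractile proteins Myh9 and Tpm4. They were chosen by symbol from the 32285 genes in the files, with earlier results of these data known. Counts of them set beside shares of all genes are therefore descriptions and not tests of the set. All 10 were found and had enough counts for every comparison. The data are spatial transcriptomics (Visium) of mouse hearts, with 1 section per condition. Spots on a slide capture the polyadenylated RNA of the tissue above them, and each spot holds several cells or parts of cells. All mice were C57BL/6 and 8 weeks old. The sham mouse received vehicle by gavage for 7 days, and a needle was passed under the coronary artery without tying it. The I/R mouse received the same vehicle, then 30 min of ligation of the left anterior descending artery and 24 h of reperfusion. The SBP mouse was given Shexiang Baoxin Pill, named MUSKARDIA in the labels, for 7 days before the same ligation and reperfusion.

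Actin, myosin and tropomyosin exist in muscle forms that build the sarcomere and in non-muscle forms that shape, move and anchor other cells. Non-muscle actin cycles between monomers, which thymosins sequester and profilin hands to growing ends, and filaments, which cofilin severs. Vimentin is the intermediate filament of fibroblasts, endothelial cells and leukocytes, whereas cardiomyocytes carry desmin. In an infarcted heart most of these genes are known to be abundant in leukocytes and in activated fibroblasts. Fewer or more cells of a type and less or more RNA per cell cannot be told apart in such data.

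After removal of spots with fewer than 200 detected genes, 2234 sham, 2082 I/R and 1960 SBP spots held 25118258, 30238530 and 21631280 unique molecular identifiers (UMIs, counted transcript molecules). Transcripts of the 13 mitochondrial genes made up 48.6%, 44.3% and 46.3% of them. Cardiomyocyte markers had the highest sum of the cell type marker lists in each section, and none of the 6 was at 0. With 1 section per condition no test between conditions was possible, and no p-value is given. Levels are in CPM, the gene's UMIs per 1000000 UMIs of the section or region. Intervals are exact 95% intervals that cover counting error only, so differences between animals are not part of them.

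All 10 genes were highest in the I/R section. Relative to sham, 9 of the 10 were higher by a fold of at least 1.5 in I/R, where 23.2% of the 12231 genes with at least 50 UMIs were. Their median log2 ratio was 1.01, beside 0.24 over all genes tested. In the SBP section 8 of the 10 were lower than in I/R by at least that fold, beside 13.8% of 12151 genes, with a median of −0.76 against −0.17 over all genes. SBP stayed above sham by that fold for 1 of the 10, Vim, beside 5.31% of 11768 genes, and the median there was 0.24 against 0.08. Scaling by trimmed means (TMM) lowered every I/R over sham ratio by 0.22 and raised every SBP over I/R ratio by 0.15. With it the count of the 10 genes lower in SBP than in I/R went from 8 to 5, and the count above sham went from 1 to 0. TMM shifts the ratios of all genes alike, and the share of all genes past the fold with it is not given here.

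**Figure D1:**
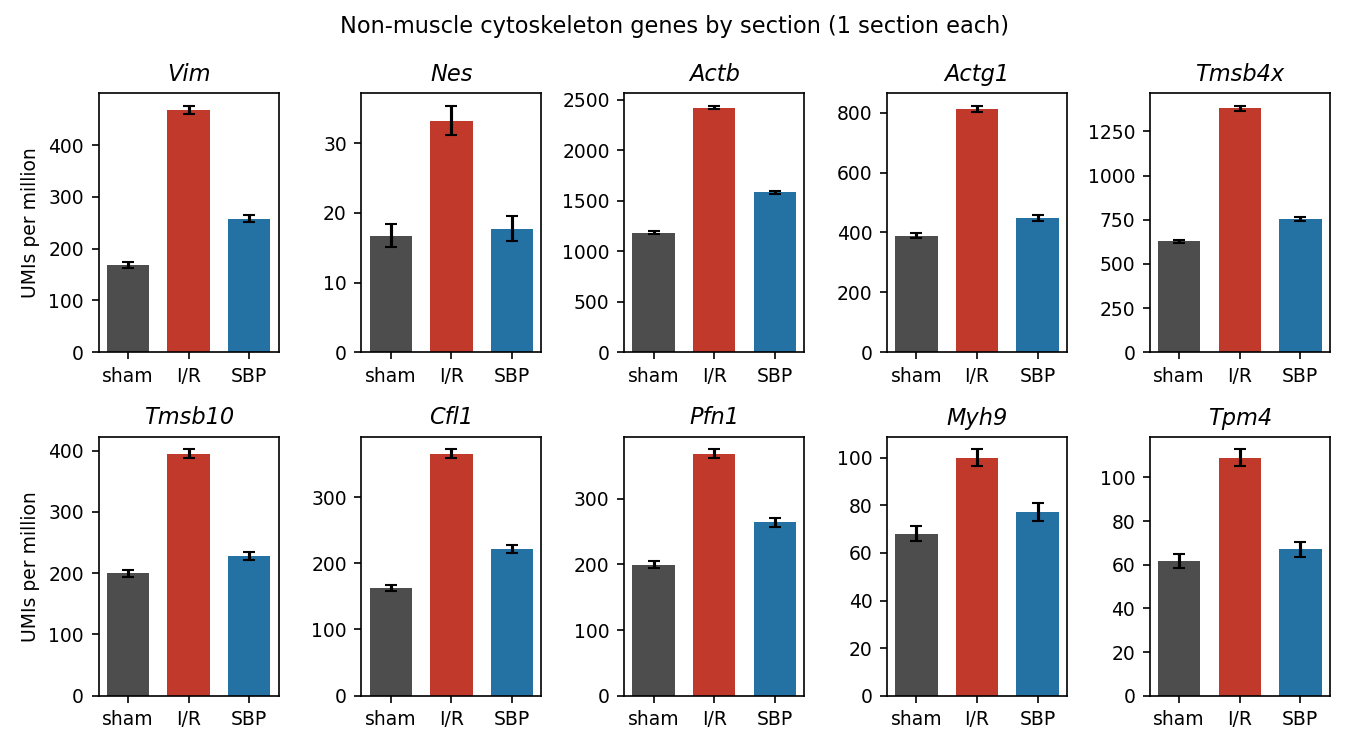
CPM (vertical axis, from 0, its own scale in each panel) of the 10 genes in the sham, I/R and SBP sections, 1 section each. Bars are section totals, and error bars are exact 95% Poisson intervals that cover counting error only. In every panel the I/R bar is the tallest, and the Vim bars stand at 168, 468 and 257.

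Vim encodes vimentin and lies at chr2:13573927-13582826 (GRCm38, plus strand). It was counted at 168 CPM in the sham section, 468 in the I/R section and 257 in the SBP section. I/R stood far above both other sections, and SBP lay between them. The log2 ratio of I/R over sham was 1.48 (95% interval 1.43 to 1.53), the largest of the 10 genes, and Vim ranked 420 among the 12231 genes from the highest ratio. SBP was below I/R by a log2 ratio of −0.86 (−0.91 to −0.82) and above sham by 0.61 (0.56 to 0.67).

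Nes encodes nestin, an intermediate filament protein of progenitor and of some endothelial and muscle cells (chr3:87971078-87980451, plus strand). It had 420, 1006 and 383 UMIs in all, the fewest of the 10 genes, or 16.7, 33.3 and 17.7 CPM. I/R was high, and sham and SBP lay close to each other. The log2 ratio of I/R over sham was 0.99 (0.83 to 1.16), and that of SBP over I/R was −0.91 (−1.08 to −0.74). For SBP over sham it was 0.08, with an interval from −0.12 to 0.29 that includes 0.

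Actb and Actg1 encode the β and γ cytoplasmic actins (chr5:142903115-142906754 and chr11:120345690-120348542, both on the minus strand). Actb was counted at 1185, 2422 and 1584 CPM in sham, I/R and SBP. Actg1 was counted at 389, 813 and 448. Both followed the same order of sections, but SBP lay further above sham for Actb than for Actg1. The log2 ratios of I/R over sham were 1.03 (1.01 to 1.05) for Actb and 1.06 (1.03 to 1.09) for Actg1. Those of SBP over I/R were −0.61 (−0.63 to −0.59) and −0.86 (−0.89 to −0.82). The Actb ratio lay just past the fold of 1.5, and its interval does not reach the Actg1 value.

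The promoter of Actg1 is shown because, of the promoters searched, it alone held a CArG box, the element bound by serum response factor, a known regulator of actin genes. RefSeq (GRCm38.p6) promoter windows matched 9 of the 10 genes, all but Actb, and the 250 bases before each start were searched on both strands. The CArG box was found for 1 of the 9 genes and in 1.47% of all 32851 such windows. It occupies bases 90 to 81 before the RefSeq start of Actg1. That start lies inside the gene span given above, which is from GENCODE, so the box is nearer to the GENCODE start. The box is in capitals below, in the bases from 250 to 51 before the RefSeq start (chr11:120348546-120348745, minus strand).
Actg1: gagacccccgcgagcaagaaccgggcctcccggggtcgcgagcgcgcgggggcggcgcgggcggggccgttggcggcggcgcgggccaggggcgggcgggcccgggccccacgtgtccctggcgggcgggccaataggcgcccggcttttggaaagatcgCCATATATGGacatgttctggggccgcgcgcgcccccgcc
The letters TATAAA were found for 2 of the 9 genes, Vim and Myh9, and in 12.4% of all windows. GGGCGG was found for 7 of the 9 genes and in 32.7% of all windows. These matches describe the sequence alone, and binding was not measured.

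Tmsb4x and Tmsb10 encode thymosins β4 and β10, small peptides that hold actin as monomers (chrX:167207093-167209315 and chr6:72957347-72958748, both on the minus strand). Tmsb4x was counted at 627, 1382 and 756 CPM in sham, I/R and SBP. Tmsb10 was counted at 199.9, 395 and 227. Both were highest in I/R, and SBP was nearer to sham than to I/R. The log2 ratios of I/R over sham were 1.14 (1.11 to 1.17) and 0.98 (0.94 to 1.03). SBP was below I/R by −0.87 (−0.90 to −0.84) and −0.80 (−0.85 to −0.75) on the log2 scale. SBP was above sham by 0.27 (0.24 to 0.30) and 0.19 (0.13 to 0.24).

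Cfl1 encodes cofilin 1, which severs actin filaments, and Pfn1 encodes profilin 1, which delivers monomers to growing filaments (chr19:5490455-5495201, plus strand, and chr11:70651850-70654644, minus strand). Cfl1 was counted at 162, 365 and 222 CPM. Pfn1 was counted at 199.8, 369 and 264. The sections kept the same order for both, with a smaller gap between SBP and I/R for Pfn1. For Cfl1 the log2 ratio was 1.17 (1.12 to 1.22) for I/R over sham and −0.72 (−0.77 to −0.67) for SBP over I/R. For Pfn1 these were 0.88 (0.84 to 0.93) and −0.48 (−0.53 to −0.43), the latter within the fold of 1.5. Over sham, SBP was higher by 0.45 (0.39 to 0.51) for Cfl1 and by 0.40 (0.35 to 0.46) for Pfn1. Snx32, on the opposite strand, overlaps Cfl1 and had 81, 103 and 92 UMIs in all, too few to move its counts.

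Myh9 encodes the heavy chain of non-muscle myosin IIA, the motor of contraction outside muscle, and Tpm4 encodes a tropomyosin that lines non-muscle filaments (chr15:77760587-77842175, minus strand, and chr8:72134975-72153142, plus strand). Myh9 was counted at 68.2, 99.97 and 77.1 CPM. Tpm4 was counted at 61.7, 109 and 67.0. Myh9 had the smallest I/R over sham ratio of the 10 genes, and Tpm4 in SBP was close to sham. The log2 ratio of I/R over sham for Myh9 was 0.55 (0.47 to 0.64), within the fold of 1.5, and that of SBP over I/R was −0.37 (−0.46 to −0.29). For Tpm4 these were 0.82 (0.74 to 0.91) and −0.70 (−0.79 to −0.61), and SBP was above sham by 0.12 (0.01 to 0.22).

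**Figure D2:**
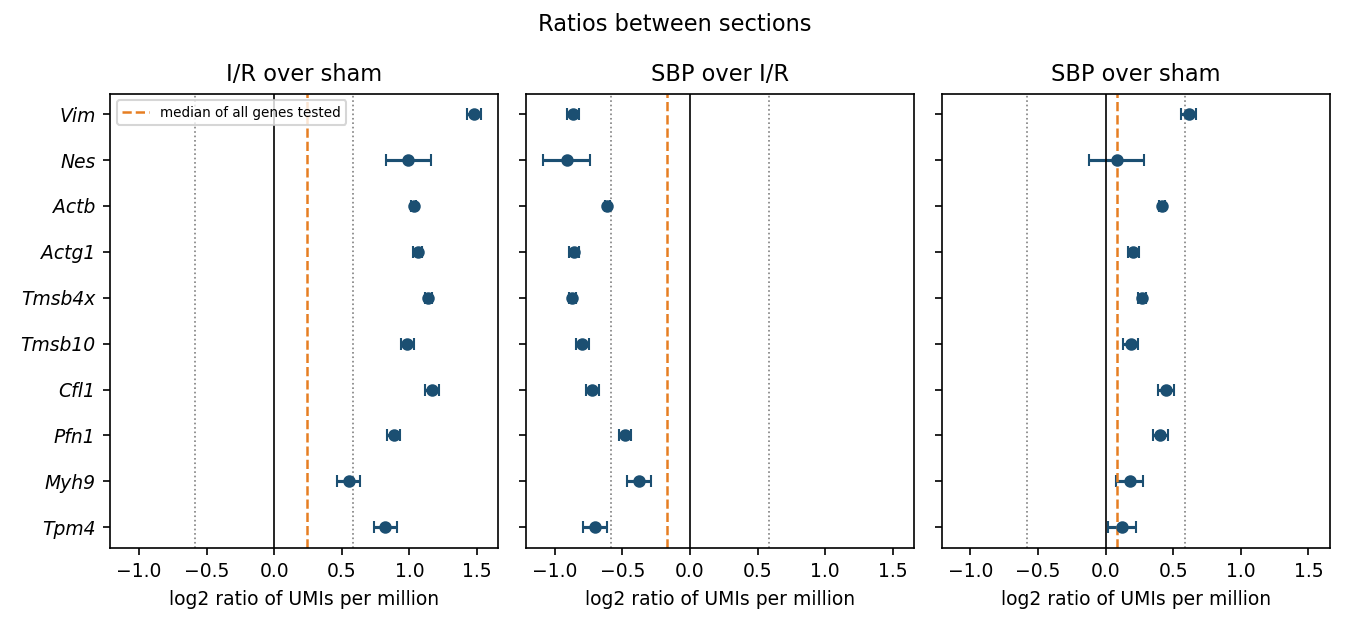
Log2 ratios of CPM (horizontal axis) for the 10 genes in I/R over sham, SBP over I/R and SBP over sham, with exact 95% intervals that cover counting error only. The dashed line is the median of all genes tested (0.24, −0.17 and 0.08), and dotted lines mark a fold of 1.5. All 10 points lie right of the dashed line in the left panel and left of it in the middle panel.

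Counts of these genes varied more from spot to spot in I/R. To compare spots, 6500 UMIs were drawn at random from each. This kept 2102 sham, 1880 I/R and 1747 SBP spots and dropped 132, 202 and 213 shallower ones. The median spot held 6, 7 and 7 Actb UMIs in sham, I/R and SBP. The 95th percentile over spots was 17, 68 and 25 Actb UMIs. For Actb the middle of the distribution was thus nearly level across the sections, and its upper end was 4 times as far out in I/R as in sham. Variance over mean, a measure of spread over spots that can rise with the mean, was 7.43, 28.1 and 9.36 for Actb. The mean itself was 7.37, 15.8 and 9.16 Actb UMIs. Before thinning, the 1% of spots with the most Actb UMIs held 8.29%, 6.35% and 6.55% of them. For each of the 10 genes this share was smaller in I/R than in sham, so UMIs were not more concentrated in the top spots of I/R. For Vim the median spot held 1 UMI in every section, and the 95th percentile was 4, 12 and 6. For Tmsb4x the median was 3, 5 and 3, and the 95th percentile was 9, 32.1 and 12. The median spot was also higher in I/R for Actg1 (2, 3 and 2) and for Tmsb10 and Pfn1 (1, 2 and 1 for both). Their 95th percentiles were 6, 21 and 7 for Actg1, 4, 9 and 5 for Tmsb10, and 4, 8 and 5 for Pfn1.

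The share of thinned spots with at least 1 UMI differed most between sections for Vim, at 52.3%, 72.8% and 61.4% of sham, I/R and SBP spots. The exact 95% intervals, 50.1% to 54.4%, 70.7% to 74.8% and 59.0% to 63.7%, do not overlap. For Tpm4 the share was 29.8%, 42.3% and 29.9%, so sham and SBP were level. For Nes it was 9.99%, 16.0% and 9.44%, again with sham and SBP overlapping in their intervals. For Myh9 it was 32.6%, 37.7% and 34.8%, and the SBP interval (32.6% to 37.1%) overlapped those of both other sections. Cfl1 was found in 57.5%, 70.1% and 63.3% of spots, Pfn1 in 66.2%, 76.2% and 73.6%, and Tmsb10 in 61.5%, 73.8% and 63.9%. Actb was found in 98.6% to 99.7% of spots in the 3 sections, so its share carries no information on level.

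Markers of neutrophils, some of those of macrophages and the fibroblast marker Postn moved with these genes. The summed markers of several other cell types did not. The summed level of 6 neutrophil markers was 29.4, 249 and 122 CPM in sham, I/R and SBP, and each of the 6 passed the fold of 1.5 both upward from sham to I/R and downward from I/R to SBP. The sum of 6 macrophage markers was 606, 1122 and 666, and 3 of the 6 passed the fold in I/R over sham. Lyz2, which neutrophils also express, was at 283, 695 and 346 CPM and carried most of the difference in the sum. Cd68 (18.2, 49.1 and 23.2) and Adgre1 (13.1, 22.6 and 14.7) also passed the fold in I/R over sham. Both passed it downward from I/R to SBP as well. The complement genes C1qa (117, 133 and 110) and C1qb (144, 180 and 140) and the receptor gene Csf1r (30.1, 40.9 and 32.4) differed less. The sum of 6 cardiomyocyte markers was 35799, 26392 and 32531, lowest in I/R, whereas endothelial markers differed little (289, 293 and 302). The fibroblast sum was 970, 984 and 713, and the smooth muscle and pericyte sum 587, 435 and 368. Fibroblast markers were split in I/R over sham, from a log2 ratio of 1.25 for Postn to −0.35 for Dcn. Postn was at 27.9, 66.3 and 24.0 CPM and Pdgfra at 14.7, 33.8 and 23.8 in sham, I/R and SBP. Both passed the fold in I/R over sham, and the other 4 did not. In SBP over I/R, Postn passed it downward (−1.47) and Pdgfra did not (−0.51). The sum of 4 erythrocyte markers was 2878, 4094 and 3848. No marker of these lists was at 0 in any section. Spots in which thinning left no neutrophil marker UMI made up 90.7% of sham, 64.9% of I/R and 81.9% of SBP spots, and this restriction was added after the values were seen.

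In those spots the sections lay closer together for the 10 genes. The median log2 ratio of I/R over sham went from 1.01 to 0.25, and 1 of the 10 genes, Vim, was higher by a fold of at least 1.5, beside 5.11% of 10080 genes. The median of SBP over I/R went to −0.12, and none of the 10 was lower by that fold, beside 2.8% of 9753 genes. For SBP over sham the median was 0.16, and none of the 10 passed the fold, beside 4.36% of 10201 genes. Vim was at 139, 225 and 201 CPM in sham, I/R and SBP, so it was still lowest in sham. Actb was at 1000.2, 1104 and 1149, with SBP now highest. Myh9 was at 63.2, 49.6 and 62.2, with I/R now lowest, and Nes was at 15.8, 14.1 and 13.4. The median over all genes tested also went from 0.24 to 0.01 for I/R over sham.

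In the remaining spots, those with a neutrophil marker UMI, I/R stood apart for all 10 genes. Actb was at 2435, 4900 and 2585 CPM in sham, I/R and SBP spots with such a UMI. Vim was at 324, 913 and 405, and Nes was at 25.2, 63.6 and 27.7. For all 3 genes SBP lay near sham and far below I/R. Within I/R, spots with a neutrophil UMI exceeded those without by a log2 ratio of 2.15 (2.11 to 2.19) for Actb and 2.17 (1.85 to 2.50) for Nes. The same ratio for Actb was 1.28 in sham and 1.17 in SBP. These spots differed in more than neutrophil markers: in I/R their macrophage marker sum was 2190 against 536 CPM, their cardiomyocyte marker sum 19181 against 30882, and their mitochondrial share 35.0% against 49.3%. Spots with a neutrophil UMI also differed between sections. Their macrophage marker sum was 1312, 2190 and 904.6 CPM in sham, I/R and SBP. Their cardiomyocyte marker sum was 29879, 19181 and 26606, and their mitochondrial share 44.6%, 35.0% and 43.9%. The sections were thus not compared in spots of like composition, and the part of each of these differences in the result was not tested.

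Ankrd1 encodes a stress-responsive protein of cardiomyocytes, and its level in a spot was used to divide each section. The 95th percentile of Ankrd1 in sham spots was 27.0 UMIs per 10000, and spots above it numbered 112 of 2234 in sham (5.01%), 479 of 2082 in I/R (23.0%) and 326 of 1960 in SBP (16.6%). In sham, 8 of the 10 genes were higher in these Ankrd1-high spots than in the other spots by a fold of at least 1.5, beside 28.3% of 10642 genes tested. In I/R 4 of the 10 were, beside 13.6% of 11408, and in SBP 9 of the 10, beside 16.6% of 10469. The median log2 ratios of the 10 genes were 0.81, 0.57 and 0.77, and those of all genes were 0.31, 0.24 and 0.21. The 2 kinds of spots also differed in marker sums. Fibroblast markers were at 1954 CPM in Ankrd1-high and 892 in other spots of sham, 1211 and 900 in I/R, and 723 and 711 in SBP. Cardiomyocyte markers were at 24973 and 36657 in sham, 21333 and 28265 in I/R, and 26190 and 33934 in SBP. Their part in the ratios was not tested.

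Vim was at 314 CPM in Ankrd1-high and 157 in other spots of sham, at 663 and 396 in I/R, and at 406 and 224 in SBP. The other spots of I/R thus held more Vim than the Ankrd1-high spots of sham. The log2 ratios of high over other were 1.003 (0.87 to 1.13), 0.74 (0.70 to 0.79) and 0.86 (0.77 to 0.94). Ankrd1-high spots held 38.3% of the Vim UMIs of I/R while holding 27.0% of all its UMIs.

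Nes behaved differently in sham. It was at 16.3 CPM in Ankrd1-high and 16.8 in other spots of sham, a log2 ratio of −0.04 with a wide interval (−0.63 to 0.49) from 30 UMIs. In I/R it was at 51.3 and 26.6, a log2 ratio of 0.95 (0.76 to 1.13), and in SBP at 28.3 and 15.4, a ratio of 0.88 (0.55 to 1.21). The intervals of sham and of I/R do not overlap. In I/R, Nes had the largest high over other ratio of the 10 genes.

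The actins and Tmsb4x had the smallest ratios in I/R. Actb was at 2901 CPM in Ankrd1-high and 2245 in other spots of I/R, a log2 ratio of 0.37 (0.35 to 0.39), compared with 0.82 in sham and 0.70 in SBP. Tmsb4x was at 1663 and 1277 in I/R, a ratio of 0.38 (0.35 to 0.41), and Actg1 at 1034 and 730, a ratio of 0.50 (0.46 to 0.54). The mitochondrial share was lower in Ankrd1-high than in other spots, at 40.6% and 45.7% in I/R. With mitochondrial UMIs left out of both Ankrd1 and the denominators, none of the 10 genes passed the fold in I/R, the median was 0.16, and the ratios of Actb and Tmsb4x turned to −0.077 and −0.020. The share of all genes that passed under that setting is not given here. The neutrophil marker sum was 284 in Ankrd1-high and 236 in other spots of I/R, 274 and 87.9 in SBP, and 66.1 and 26.5 in sham, and its part in the result was not tested.

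**Figure D3:**
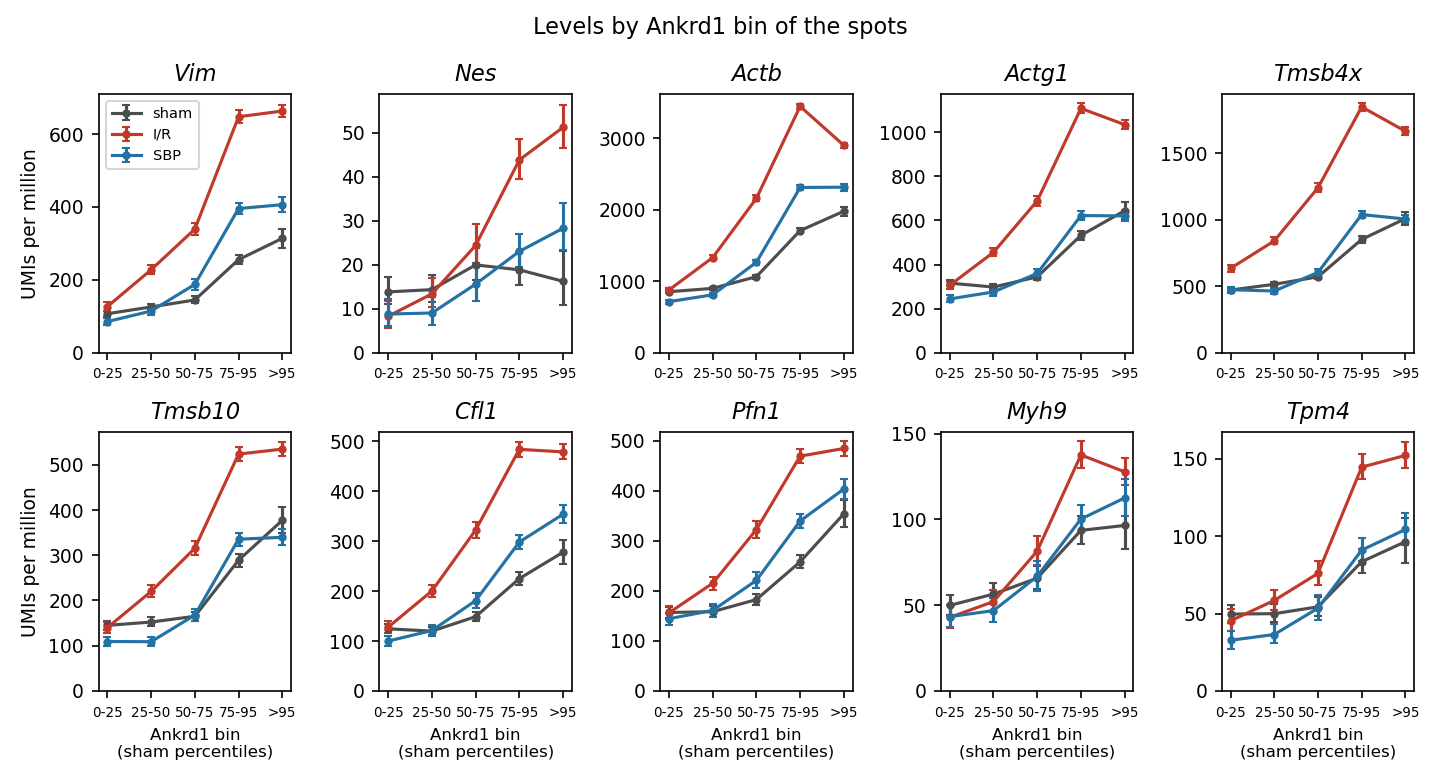
CPM of the 10 genes (vertical axis, from 0, its own scale in each panel) in spots binned by Ankrd1 per 10000 UMIs (horizontal axis), with bin edges at the 25th, 50th, 75th and 95th percentiles of sham spots. Lines are the sham, I/R and SBP sections and error bars exact 95% Poisson intervals that cover counting error only. In each panel and section the point of the fourth bin lies above that of the lowest bin, and the I/R line of Actb then drops from 3447 to 2901.

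For Vim the relation to Ankrd1 was graded rather than a step at the threshold. In I/R, Vim was at 127 CPM in the bin of lowest Ankrd1, then 228, 339 and 647, and 663 in the bin above the threshold. In sham it went from 107 to 314 over the same bins, and in SBP from 85.6 to 406. In the bin of lowest Ankrd1 the 3 sections were thus closer together than in the bins of higher Ankrd1. Actb in I/R was at 879, 1332, 2160, 3447 and 2901 over the bins, so the peak lay just below the threshold. Actg1 (1107 and 1034) and Tmsb4x (1846 and 1663) showed the same drop across the last 2 bins of I/R, with intervals that do not overlap. Tmsb4x was already higher in the lowest bin of I/R (634) than in that of sham (471) or SBP (474). Not every gene was graded in every section. Nes in sham was at 13.9, 14.4, 20.0, 18.9 and 16.3. In SBP the last 2 bins were level for Actb (2312 and 2316) and Actg1 (622 and 620).

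The section differences were found on both sides of the threshold. In the spots below it, the median log2 ratio of the 10 genes for I/R over sham was 0.94, beside 0.19 over all genes, and in the Ankrd1-high spots it was 0.67, beside 0.13. For SBP over I/R the medians were −0.76 and −0.60, beside −0.14 and −0.16 over all genes. In Ankrd1-high spots, Actg1 and Tmsb4x in SBP did not differ from sham beyond counting error, with log2 ratios of −0.05 (−0.15 to 0.05) and 0.00 (−0.08 to 0.08). Nes in Ankrd1-high spots was higher in I/R than in sham by 1.66 (1.12 to 2.24).

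Spot by spot, the 10 genes went together most closely in I/R. Pearson correlations were computed on log2(UMIs + 1) in the thinned spots and are descriptions, since spots of a section share a library and an animal. Thinning did not level the counts of the genes themselves, with a mean of 1.02, 3.03 and 1.55 Vim UMIs in sham, I/R and SBP spots. The part of these counts in the differences between sections was not tested. Actb correlated with Vim at 0.39, 0.73 and 0.53 in sham, I/R and SBP, and ranked 1 in each section among the 3731 genes found in at least 10% of the spots of every section. Correlations with Vim in I/R were 0.68 for Actg1, 0.66 for Tmsb4x, 0.64 for both Tmsb10 and Cfl1, and 0.58 for Pfn1. Myh9 at 0.50 and Tpm4 at 0.48 followed, and Nes, the sparsest gene, was at 0.35. The median for the other 9 genes was 0.22, 0.64 and 0.40 (sham, I/R, SBP), beside 0.04, 0.10 and 0.05 over all 3731 genes. Those genes were not matched to the 9 in abundance, and Nes, found in under 10% of sham and SBP spots, is not among them. In spots thinned to 2000 non-mitochondrial UMIs the medians were 0.11, 0.40 and 0.25. That draw also differs in total depth and in the spots kept, and the cause of the lower values was not tested.

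Outside the 10 genes, the highest mean correlations with Vim over the 3 sections belonged to Eef1a1 (0.51), S100a6 (0.51), Rplp1 (0.50), Rpl41, Ftl1, Rps12, Timp1, Myl6, Rpsa and Lgals1 (0.45). Of these, 5 encode parts of the translation machinery, and Myl6 encodes a light chain of non-muscle and smooth muscle myosin. Timp1, a metalloproteinase inhibitor, was found in 20.4% of sham, 51.5% of I/R and 42.4% of SBP spots. Actc1, the cardiac actin, had correlations with Vim of −0.28, −0.48 and −0.06 in the same order of sections.

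All 10 genes were anticorrelated with the cardiomyocyte marker sum in each section, at −0.42 (Nes) to −0.80 (Actb) in I/R and −0.10 (Nes) to −0.53 (Actb) in sham. With the macrophage marker sum Actb correlated at 0.43, 0.74 and 0.52 (sham, I/R, SBP), and with the neutrophil sum at 0.31, 0.72 and 0.40. With the fibroblast sum Actb correlated most in sham, at 0.41, and at 0.32 in both I/R and SBP. Every other gene of the 10 correlated with that sum most in I/R, some by a small margin. Vim was at 0.36, 0.37 and 0.34 in sham, I/R and SBP, and Cfl1 at 0.20, 0.31 and 0.19. Endothelial markers correlated at 0.29 or less with each of the 10 genes. The mitochondrial share of a spot correlated with Actb at −0.54, −0.84 and −0.59. These marker sums were not separated from each other, and their part in the correlations among the 10 genes was not tested.

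**Figure D4:**
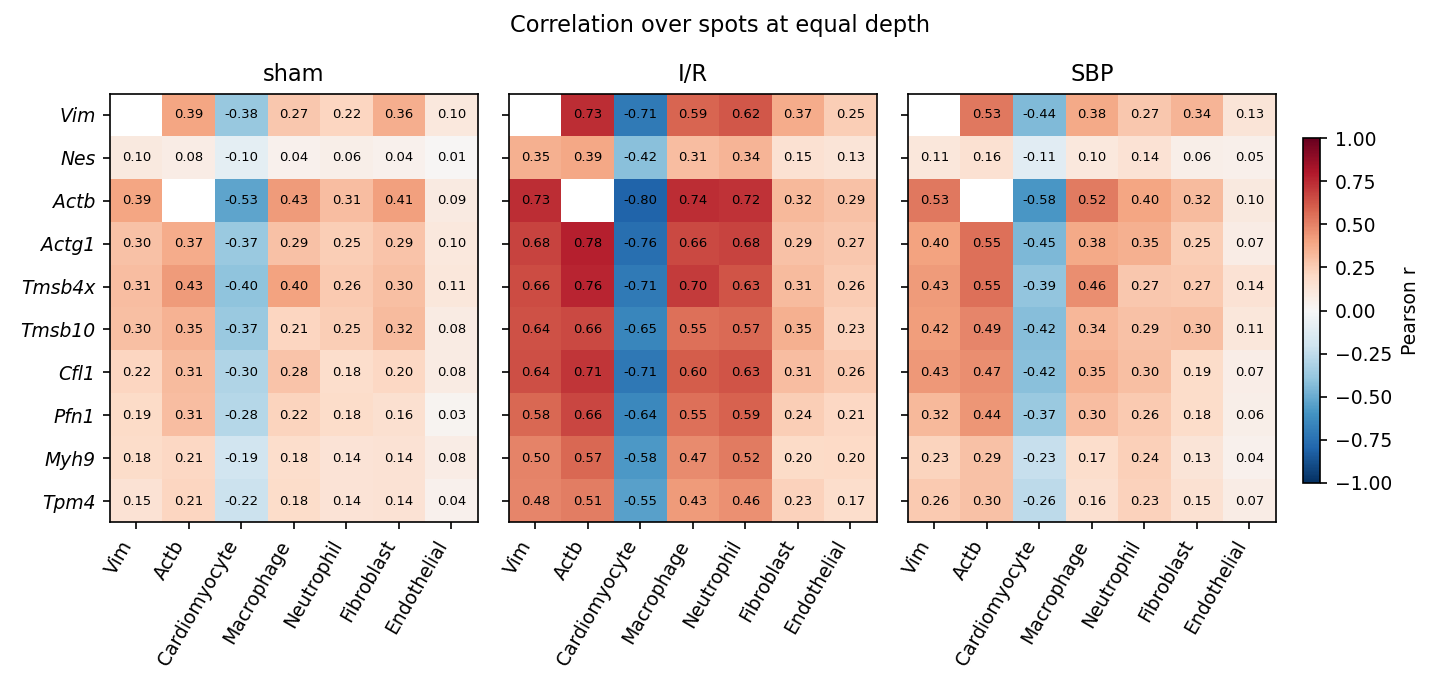
Pearson correlations over spots thinned to 6500 UMIs, on log2(UMIs + 1), between each of the 10 genes (rows) and Vim, Actb or the summed markers of 5 cell types (columns), in the sham, I/R and SBP sections. Color runs from −1 (blue) to 1 (red), and blank cells are a gene with itself. The cardiomyocyte column is negative throughout and reaches −0.80 for Actb in I/R.

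Each gene was also set against a relative in the same section, a ratio that does not depend on scaling. Per 100 UMIs of the cardiac actin Actc1 there were 17.7, 46.5 and 32.5 UMIs of Actb in sham, I/R and SBP. For Actg1 there were 5.83, 15.6 and 9.20. Non-muscle actin thus gained on cardiac actin in I/R, and in SBP both ratios lay between the other sections. Actb and Actg1 kept nearly the same ratio to each other in sham (304 per 100) and I/R (298), but in SBP there were 353 Actb UMIs per 100 of Actg1 (95% interval 345 to 361).

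Cfl1 against the muscle cofilin Cfl2 was level in sham and SBP. Per 100 UMIs of Cfl2 there were 104, 184 and 107 of Cfl1 (sham, I/R, SBP), and the sham (99.6 to 109) and SBP (103 to 111) intervals overlap. Both genes were higher in SBP than in sham, Cfl2 by a log2 ratio of 0.41 and Cfl1 by 0.45. Tpm4 per 100 UMIs of the muscle tropomyosin Tpm1 was at 1.13, 2.46 and 1.27. Vim per 100 UMIs of desmin (Des) was at 22.1, 33.3 and 22.7, with overlapping sham and SBP intervals. Here too both genes were higher in SBP than in sham, Des by a log2 ratio of 0.58 and Vim by 0.61. The I/R section also held more Des than the sham section (log2 ratio 0.89), so Nes per 100 UMIs of Des hardly differed between sham and I/R, at 2.20 and 2.36, and was lower in SBP, at 1.56. Myh9 against Myh10, the heavy chain of non-muscle myosin IIB, had overlapping intervals in all 3 sections, at 968, 1018 and 975 per 100.

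**Figure D5:**
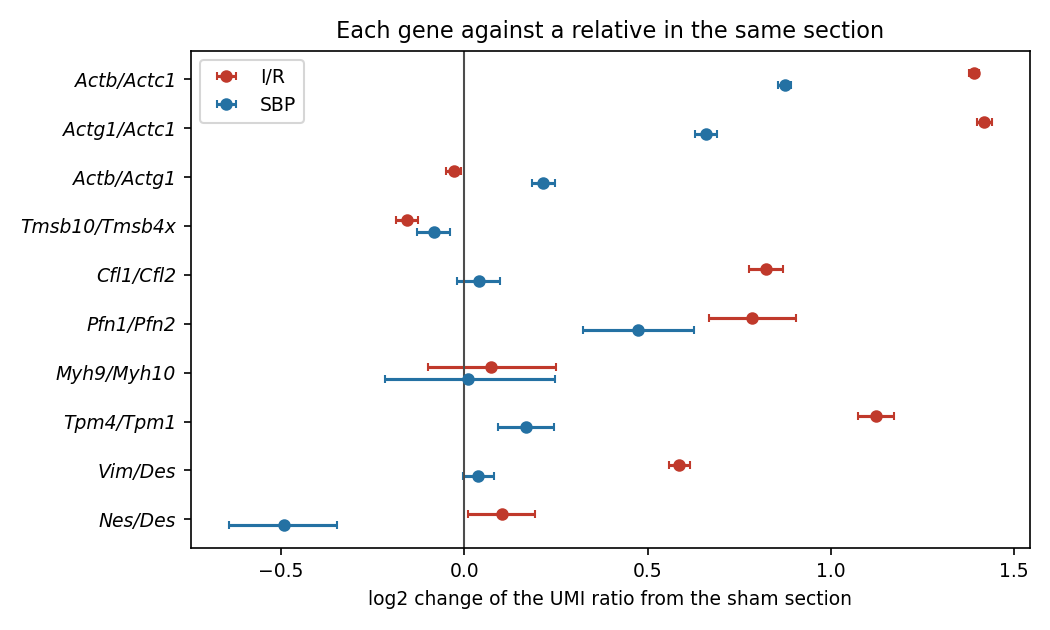
Log2 change from the sham section (vertical line at 0) of the UMI ratio between each gene and a relative, in the I/R and SBP sections. Error bars are the exact 95% interval of the ratio in the plotted section alone and cover counting error only. Actb and Actg1 against Actc1 reach 1.39 and 1.42 in I/R, and Myh9 against Myh10 stays at 0.07.

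Other genes of the actin and filament systems were examined as lists of 77 genes in all, also chosen with earlier results of these data known. Of the 74 with enough counts, 36 were higher and 2 lower in I/R than in sham by a fold of at least 1.5, beside 23.2% of all genes higher, and their median log2 ratio was 0.57, beside 0.24 over all genes. In SBP 24 were lower and 1 higher than in I/R, beside 13.8% of all genes lower, with a median of −0.46 beside −0.17. Of 73 tested against sham, 7 were higher and 3 lower in SBP, beside 5.31% of all genes higher, with a median of 0.16 beside 0.08. Shares of all genes in the opposite directions are not given here. The medians of the lists had the same signs as those of the 10 genes and were smaller.

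Over all genes 23.2% were higher in I/R than in sham and 13.8% lower in SBP than in I/R, and the share of each list is given against these. In the Arp2/3 complex, which starts branches on actin filaments, 6 of 9 genes were higher in I/R than in sham, led by Arpc1b at a log2 ratio of 1.32. Among cross-linkers and bundlers 10 of 12 were, led by the α-actinin gene Actn1 at 1.36, and 7 of the 12 were lower in SBP than in I/R. Among profilin-related genes and nucleators 5 of 9 were higher in I/R, led by Coro1a, a coronin of leukocytes, at 1.52. Among membrane linkers 4 of 7 were higher in I/R, led by the moesin gene Msn at 1.31.

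Of 11 capping and severing genes 4 were higher and 1 was lower in I/R than in sham, a count not far from the 23.2% of all genes that were higher. Capg, a capping protein abundant in macrophages, was at 27.3, 88.8 and 51.5 CPM in sham, I/R and SBP, and its I/R over sham log2 ratio of 1.70 was the largest of the 74 genes. Gsn, the severing protein gelsolin, was at 823, 534 and 864, with an I/R over sham log2 ratio of −0.62. It was the 1 gene of the lists that was higher in SBP than in I/R by the fold, at 0.69.

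Of 4 sarcomeric and smooth muscle actins none was higher in I/R than in sham by the fold, and 2 were lower in SBP than in I/R, with a median log2 ratio of −0.73 over the 4. Acta2 of smooth muscle was lower in I/R than in sham, at 254, 168 and 83.0 CPM in sham, I/R and SBP. Among 3 tropomyosins Tpm3 was higher in I/R by a log2 ratio of 1.40, whereas Tpm1 was at −0.30. Among 6 genes of non-muscle myosin II 1 was higher, the light chain gene Myl12a at 0.66, and Myl9 was at −0.27. Of 4 intermediate filament genes tested, from 7 listed, 2 were higher in I/R by the fold, with Des the highest at 0.89 and Synm the lowest at 0.08. With so few genes in a list, counts of 1 of 3, 1 of 6 and 2 of 4 cannot be told from the 23.2% of all genes.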

How the data were processed

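The authors deposited gene-by-spot tables of UMI counts, and their processing notes name Space Ranger 1.3.0 and genome build mm10. The handling of reads that match several places, such as processed copies of actin and thymosin genes, is not given in the sources used here. Spots with at least 200 detected genes were kept and UMIs summed per section or region, as UMIs per 1000000 UMIs (CPM). Ratios carry exact conditional binomial 95% intervals, levels exact Poisson intervals and shares Clopper-Pearson intervals, and all cover counting error only. A gene was tested for the fold with at least 50 UMIs in the sections or regions compared. Equal depth means 6500 UMIs drawn without replacement from each spot (the 10th percentile of spot depth, lowered to a multiple of 500). The Ankrd1 threshold was the sham 95th percentile of UMIs per 10000. The 10 genes and the lists were chosen with earlier results of these data known. The genes named are the 10, Ankrd1, their relatives, the 10 other genes with the highest mean correlation with Vim, and the extremes of each list except 1 that is not reported here, with Acta2 and Timp1 values added. The interval and thinning steps were tested on simulated counts. Spot barcodes mark fixed array positions, and 1093 occurred in all 3 sections. Gene positions are from GENCODE M21 and promoters from RefSeq GRCm38.p6. Python 3.11.15 was used with pandas 2.3.3, numpy 2.4.6, matplotlib 3.10.9 and, for the intervals, scipy 1.17.1.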

Additional observations from a re-analysis of the deposited data

How the results depend on the processing

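No paired analysis was possible because there was 1 section per condition. The cause of each move was not tested. For I/R over sham the median log2 ratio of the 10 genes was 0.90 without mitochondrial UMIs, 0.79 with TMM, 0.80 with median-of-ratios factors, 1.34 with equal weight for each spot and 0.25 in spots without a neutrophil marker UMI. The count past 1.5-fold was 1 in those spots, and 5 passed a fold of 2, beside 8.38% of all genes. For SBP over I/R the median was −0.61 with TMM, −0.63 with median-of-ratios factors, −0.91 with equal weight and −0.12 without neutrophil UMIs. The count was 5 with TMM, 0 without neutrophil UMIs and 0 at a fold of 2, beside 4.53% of all genes. For SBP over sham the median was 0.17 without mitochondrial UMIs, 0.16 with TMM, 0.15 with median-of-ratios factors, 0.35 with equal weight and 0.16 without neutrophil UMIs. The count was 2 with equal weight and 0 under the other settings just named and at a fold of 2, beside 1.48% of all genes at that fold. For the counts under other scalings or weights, the share of all genes is not given here. In spots without neutrophil UMIs the sign turned for Nes (−0.16) and Myh9 (−0.35) in I/R over sham. In SBP over I/R it turned for Actb (0.058), Pfn1 (0.054) and Myh9 (0.33). In SBP over sham it turned for Nes (0.08 to −0.23), Myh9 (−0.024) and Tpm4 (−0.12). Intervals are not given here for these ratios, so whether a turn exceeds counting error is not shown. Nes rested on 196, 112 and 125 UMIs in such spots of sham, I/R and SBP.

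For Ankrd1-high over other spots without mitochondrial UMIs the medians were 0.49, 0.16 and 0.58 (sham, I/R, SBP), the counts were 4, 0 and 5, and Actb (−0.077) and Tmsb4x (−0.020) turned in I/R. With the sham 90th percentile the median was 0.74 in I/R, with a count of 8, and 0.89 in SBP. With the 99th it was 0.35 in I/R, with a count of 1, and 0.55 in SBP, with a count of 3. With equal weight it was 0.37 in I/R, with a count of 1. At a fold of 2 the counts were 2, 0 and 0. The share of all genes is not given here for these Ankrd1 settings, so the counts cannot be set against it. The median correlation with Vim was 0.15 in sham and 0.59 in I/R by Spearman, 0.11, 0.40 and 0.25 in sham, I/R and SBP at 2000 non-mitochondrial UMIs, and 0.31, 0.73 and 0.48 per 10000 UMIs without thinning. Counts for Nes, at 383 UMIs in SBP, limited its ratios most.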
